A study of Homo sapiens with 12 samples.

Results

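The UGT1A locus on chromosome 2 was examined in HepG2, a widely used human liver cancer line (hepatocellular carcinoma), through the called peaks of 3 histone marks. Its members were the peaks of the deposited H3K27ac, H3K4me1 and H3K4me3 lists that overlapped a fixed 190 kb interval of the hg19 (GRCh37) build, a rule that rests on position alone. The interval began 16.3 kb before the UGT1A8 start at 234526291 and ended 18.0 kb beyond the end of the shared exons at 234681956. It held 23 of the 273551 peaks on chromosomes 1 to 22 and X, of which 16 were H3K4me1, 6 were H3K27ac and 1 was H3K4me3. Chromatin immunoprecipitation and sequencing (ChIP-seq) had been run on 12 libraries in 4 groups of 3, namely each of the 3 marks and a control titled as input whose antibody label names an anti-mouse IgG. All groups shared the cell line and had no treatment, and, going by the names of the lists, the replicates of each mark were pooled. Those names do not say whether pooling came before or after peaks were called. The submitters used the marks to rank candidate causal variants, going by the design text. The identity of the line was not checked against liver markers here. With 1 list for each mark there was no value for each replicate, so no difference below was set against the spread between cultures, no p-value was computed, and the depth of the libraries is unknown.

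The UGT1A genes encode UDP-glucuronosyltransferases, enzymes of the endoplasmic reticulum that attach glucuronic acid to bilirubin, bile acids, hormones and drugs so that they can be excreted. The genes share a locus in which each enzyme has its own promoter and its own first exon, which codes for the part that binds the substrate and is spliced to a common set of downstream exons. UGT1A1 is the bilirubin-conjugating enzyme of the liver, UGT1A3, UGT1A4, UGT1A6 and UGT1A9 are also known from liver, and UGT1A7, UGT1A8 and UGT1A10 are known mainly from the gut and other tissues outside the liver. H3K4me3 is a mark found mainly at active promoters, H3K4me1 at enhancers and the flanks of promoters, and H3K27ac at active promoters and enhancers. All 9 first exons lie on the plus strand, in the order UGT1A8, UGT1A10, UGT1A9, UGT1A7, UGT1A6, UGT1A5, UGT1A4, UGT1A3 and UGT1A1, and UGT1A6 has an upstream and a downstream start. The start of UGT1A8 lay 143 kb and that of UGT1A3 31.1 kb upstream of the UGT1A1 start.

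The promoter sequences are shown for the first exons whose marks are compared below, UGT1A1 and UGT1A6 (downstream start) with an H3K4me1 peak nearby, and UGT1A3 and UGT1A9 without a peak of any mark nearby. Each is the 250 bases before the start, 5′ to 3′ on the plus strand, from RefSeq in the GRCh38.p14 build. Capitals mark matches on either strand to the HNF1 palindrome GTTAATNATTAAC, to its 6-base core GTTAAT, which the palindrome contains on each strand, and to GCGTG, the core of the aryl hydrocarbon receptor site.
UGT1A1 (chr2:233760020-233760269): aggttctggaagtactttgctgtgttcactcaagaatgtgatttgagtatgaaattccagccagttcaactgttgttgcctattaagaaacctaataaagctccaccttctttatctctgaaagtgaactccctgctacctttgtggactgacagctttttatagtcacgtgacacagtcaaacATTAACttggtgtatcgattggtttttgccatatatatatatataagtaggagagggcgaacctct
UGT1A6 downstream start (chr2:233692640-233692889): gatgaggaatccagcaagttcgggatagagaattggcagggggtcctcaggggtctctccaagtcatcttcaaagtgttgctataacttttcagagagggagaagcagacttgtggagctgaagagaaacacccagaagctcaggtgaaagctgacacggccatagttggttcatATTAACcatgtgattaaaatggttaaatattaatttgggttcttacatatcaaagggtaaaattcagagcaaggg
UGT1A3 (chr2:233728792-233729041): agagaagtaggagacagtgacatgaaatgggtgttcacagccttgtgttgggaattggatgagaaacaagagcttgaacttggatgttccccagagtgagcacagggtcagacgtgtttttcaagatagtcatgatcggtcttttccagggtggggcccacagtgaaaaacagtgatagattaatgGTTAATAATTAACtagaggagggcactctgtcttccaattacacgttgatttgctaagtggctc
UGT1A9 (chr2:233671648-233671897): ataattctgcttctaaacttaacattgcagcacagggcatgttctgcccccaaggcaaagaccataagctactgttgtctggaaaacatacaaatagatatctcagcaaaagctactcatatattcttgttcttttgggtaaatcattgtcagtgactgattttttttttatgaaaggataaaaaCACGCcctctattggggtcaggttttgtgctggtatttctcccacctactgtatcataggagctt

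RefSeq gave promoters for 8 of the 9 genes, at 9 start sites; UGT1A10 is named only. The HNF1 palindrome, the full site of a liver transcription factor, was present in UGT1A3 from 64 to 52 bases before its start and in 2 of all 35114 promoter windows of the same length (0.00570%). Its 6-base core was present at 4 of the 9 starts, those of UGT1A1, UGT1A3, UGT1A5 and the downstream start of UGT1A6, and in 6.23% of all windows. GCGTG was present at 5 of the 9 starts, those of UGT1A8, UGT1A9, UGT1A7, UGT1A4 and the upstream start of UGT1A6, and in 32.2% of all windows. The TATA box letters TATAAA and the E-box letters CACGTG, also sought on both strands, were each found at 1 start, that of UGT1A1, and in 10.7% and 6.35% of all windows. The TATAAA match was on the minus strand, read as TTTATA on the plus strand from 92 to 87 bases before the start. Only exact letters were sought, so other forms of a TATA box would be missed. The run of TA repeats near the end of the UGT1A1 window shown above is no exact match and was not assessed. These matches describe the letters of the windows and are no evidence of binding.

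The promoters fell into groups by sequence. UGT1A5, UGT1A4 and UGT1A3 were 87.6 to 90.0% identical to one another in global alignments of the 250 bases, and UGT1A8, UGT1A9 and UGT1A7 were 62.0 to 77.6% identical. All the other 30 pairs were 46.9 to 52.8% identical, which includes the 8 pairs with UGT1A1. The windows were poor in CpG dinucleotides, with 1 to 4 at each start against a median of 11 over all windows. Their GC content was 34.8% at UGT1A7, the lowest, 38.8% at UGT1A1 and 57.6% at the upstream start of UGT1A6, the highest, with a median of 58.0% over all windows.

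Peaks were unevenly placed along the locus. From the start of the interval to the UGT1A7 start, 80.6 kb, there was 1 peak of any mark, an H3K4me1 peak at chr2:234512102-234513055 with a signal value of 3.21, 13.2 kb before the UGT1A8 start. From UGT1A3 to UGT1A1, 16.4% of the interval, there were 11 of the 23 peak summits (47.8%) and 59.6% of the bases under H3K4me1 peaks. The signal value is the authors' own value for each peak, given by their peak caller, and it is used here only within a list.

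**Figure D1:**
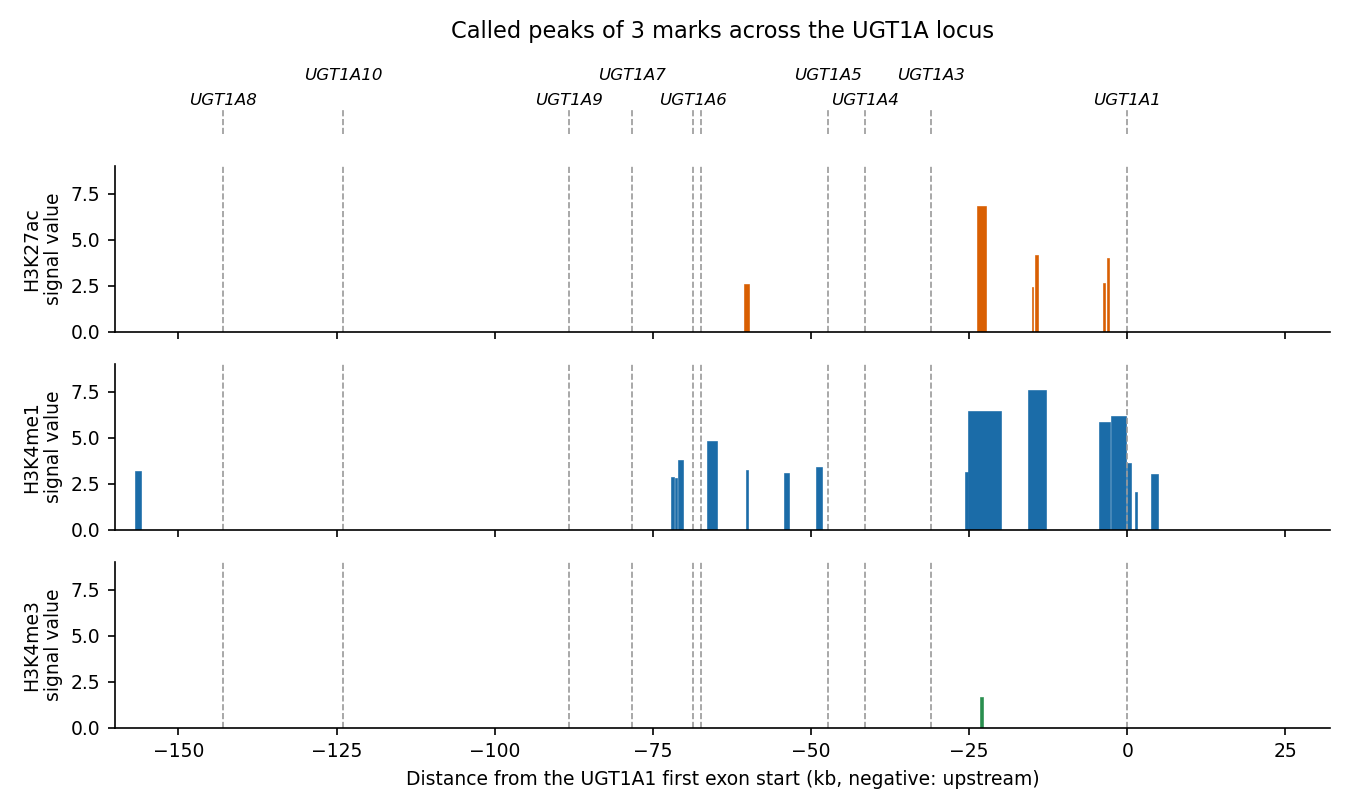
Called peaks across the UGT1A interval. The horizontal axis is the distance from the UGT1A1 first exon start in kb, each box spans 1 peak, its height is the authors' signal value within that mark's list, and dashed lines are first exon starts (both for UGT1A6). Of the H3K27ac peaks 5 stand between UGT1A3 and UGT1A1, as do the 4 tallest H3K4me1 peaks, and 1 H3K27ac peak stands between UGT1A6 and UGT1A5, and the only H3K4me3 box has a height of 1.69.

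The longest stretch without a peak of any mark ran 83.7 kb, from 234513056 to 234596788, and held the starts of UGT1A8, UGT1A10, UGT1A9 and UGT1A7. Of 169038 gaps between neighbouring regions of any mark over chromosomes 1 to 22 and X, 3.21% were at least that long, and the median gap was 2.19 kb. This stretch was picked as the longest of the gaps between the 16 merged regions of the interval, so a low share is built into that choice and is read as no more than its length. The next longest ran 22.6 kb, from 234620622 to 234643234, and held the starts of UGT1A5, UGT1A4 and UGT1A3, with 12.4% of all gaps at least as long. Beyond the last peak of the locus, which ended within the stretch between the UGT1A1 start and the end of the shared exons, 26.2 kb to the end of the interval held no peak.

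None of the 9 first exon starts had a peak of H3K4me3, the promoter mark, within 1000 bp, and none had one within 2000 bp. Of all positions on chromosomes 1 to 22 and X, 3.00% lie within 1000 bp of an H3K4me3 peak. A count of 0 among 9 starts is near that share. As the mark is found mainly at active promoters, a share over all positions cannot say whether 0 is low for gene starts. A share over gene starts was not computed here, so no conclusion is drawn from the count. The only H3K4me3 peak of the interval, at chr2:234645591-234646144, was 554 bp wide against a median of 1536 bp over the list. Its signal value of 1.69 exceeded that of 1.82% of the list, whose median was 13.31, and its −log10 q-value was 5.65. It lay 7.82 kb downstream of the UGT1A3 start and 22.8 kb upstream of the UGT1A1 start. In RefSeq's gene order DNAJB3 and UGT1A2P, both pseudogenes, are among the genes between UGT1A3 and UGT1A1, and which of them lies nearest this peak was not analysed here.

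Outside the interval the nearest H3K4me3 peaks were of another size. To the left, a peak at chr2:234474047-234475665 was 1619 bp wide, with a signal value of 41.29 and a −log10 q-value of 6291, 34.3 kb from the interval. To the right, a peak at chr2:234761395-234764019 was 2625 bp wide, with a signal value of 55.08 and a −log10 q-value of 5979, 61.4 kb from the interval. Their signal values were above those of 74.3% and 90.2% of the list, respectively, so peaks of high H3K4me3 signal stood on either side of a locus that had 1 weak peak.

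None of the 9 starts had an H3K27ac peak within 1000 bp, a count that is likewise near the 6.04% of all positions that do, and the distances that follow are a description. UGT1A1 had the nearest one, 2.82 kb upstream, followed by the downstream start of UGT1A6 with a peak 6.84 kb downstream and UGT1A3 with one 7.41 kb downstream. The others were farther off, at 12.6 kb for UGT1A5, 17.7 kb for UGT1A4, 17.8 kb for UGT1A7, 27.8 kb for UGT1A9, 50.7 kb for UGT1A8 and 63.2 kb for UGT1A10. For UGT1A8 that nearest peak lay outside the interval.

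H3K4me1 was called near 2 of the 9 first exons, UGT1A1 and UGT1A6, within 1000 bp. Of all positions 14.3% lie that near an H3K4me1 peak, a share that cannot say whether 2 of 9 is high or low for gene starts. No conclusion is drawn from the count, and what follows describes the peaks. The UGT1A1 start lay inside a peak at chr2:234668896-234669485 (signal value 3.63, −log10 q-value 9.17), which reached from -23 to 566 bp relative to the start, negative values being upstream. UGT1A6, which conjugates small phenols and serotonin, had a peak at chr2:234602443-234604122 that began 931 bp downstream of its downstream start. That peak had a signal value of 4.83, above 77.2% of the list. UGT1A5 lay just beyond the limit, with a peak of signal value 3.40 at chr2:234619783-234620621 that ended 1017 bp upstream of its start.

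Start positions were written from general knowledge of the GRCh37 gene models. Their distances from the UGT1A1 start differed from those in RefSeq by at most 98 bp (82 bp for UGT1A5 and 27 bp for the downstream start of UGT1A6). UGT1A1 was the reference point, so its own position was not checked. The calls for UGT1A6 and UGT1A5, at 931 and 1017 bp, and the placing of the UGT1A1 start 23 bp inside its peak therefore lie within or near that error. With the limit at 1200 bp, 3 first exons were counted. The distances of UGT1A3 (5.46 kb), UGT1A7 (6.21 kb), UGT1A4 (6.82 kb), UGT1A8 (13.2 kb), UGT1A9 (16.2 kb) and UGT1A10 (32.1 kb) to their nearest H3K4me1 peak were far larger than it.

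**Figure D2:**
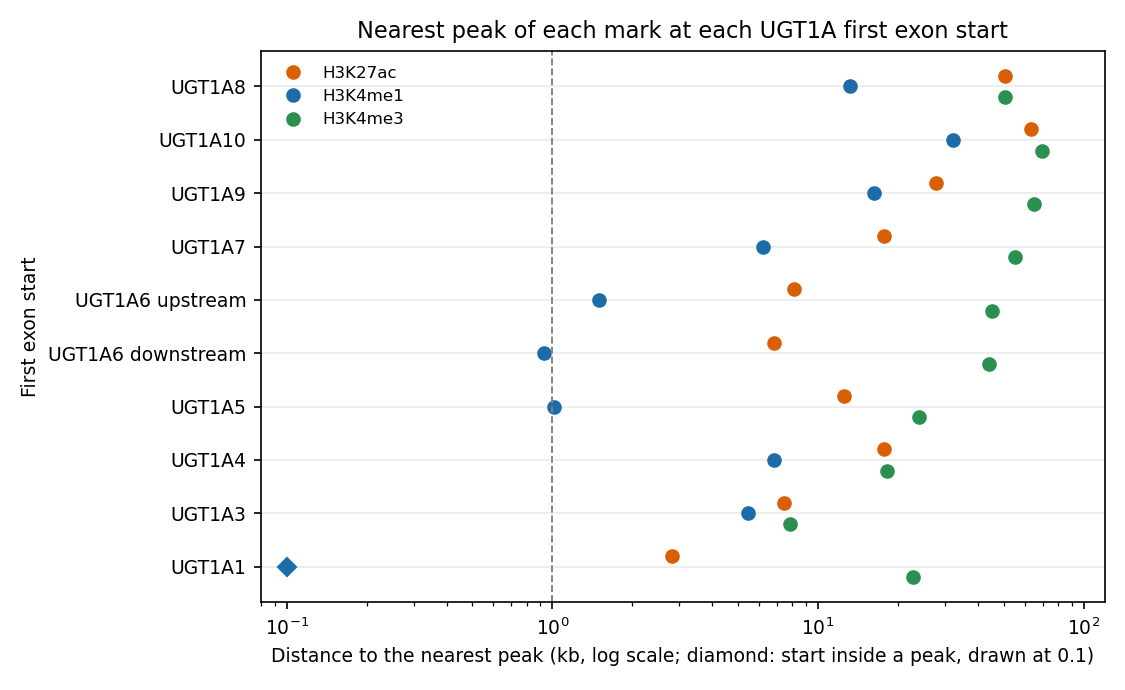
Distance in kb (log axis) from each UGT1A first exon start to the edge of the nearest peak of each mark, with a dashed line at 1 kb. UGT1A1 is the only start inside a peak (diamond), the H3K4me1 points of UGT1A6 downstream and UGT1A5 lie on either side of the line at 931 and 1017 bp, and no H3K27ac or H3K4me3 point lies below 2.82 kb.

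H3K4me1 peaks stood on both sides of the UGT1A1 start. From -4477 to 4879 bp relative to its start, 5 H3K4me1 peaks covered 66.2% of 9357 bp. The nearest upstream peak, at chr2:234666334-234668746, was 2413 bp wide, had a signal value of 6.20 and ended at -173 bp, so that a gap of 149 bp separated it from the peak at the start. The farther one, at chr2:234664442-234666126, had a signal value of 5.86 and was the only one of the 5 that overlapped H3K27ac. Downstream of the start the remaining peaks were weaker, with signal values of 2.05 and 3.04 and summits at 1220 and 4594 bp.

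A pair of H3K27ac peaks stood inside that farther H3K4me1 peak. They lay at chr2:234665084-234665441 (signal value 2.62) and chr2:234665687-234666095 (signal value 3.98), with summits at -3606 and -3045 bp from the UGT1A1 start. The 245 bp between them, from -3477 to -3233 bp, belonged to no H3K27ac peak but lay within the H3K4me1 peak. The H3K4me1 summit, at -3603 bp, was 3 bp from the summit of the farther H3K27ac peak. As background, an enhancer that answers to phenobarbital through the nuclear receptor CAR is known a few kb upstream of UGT1A1; its bounds were not analysed here.

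**Figure D3:**
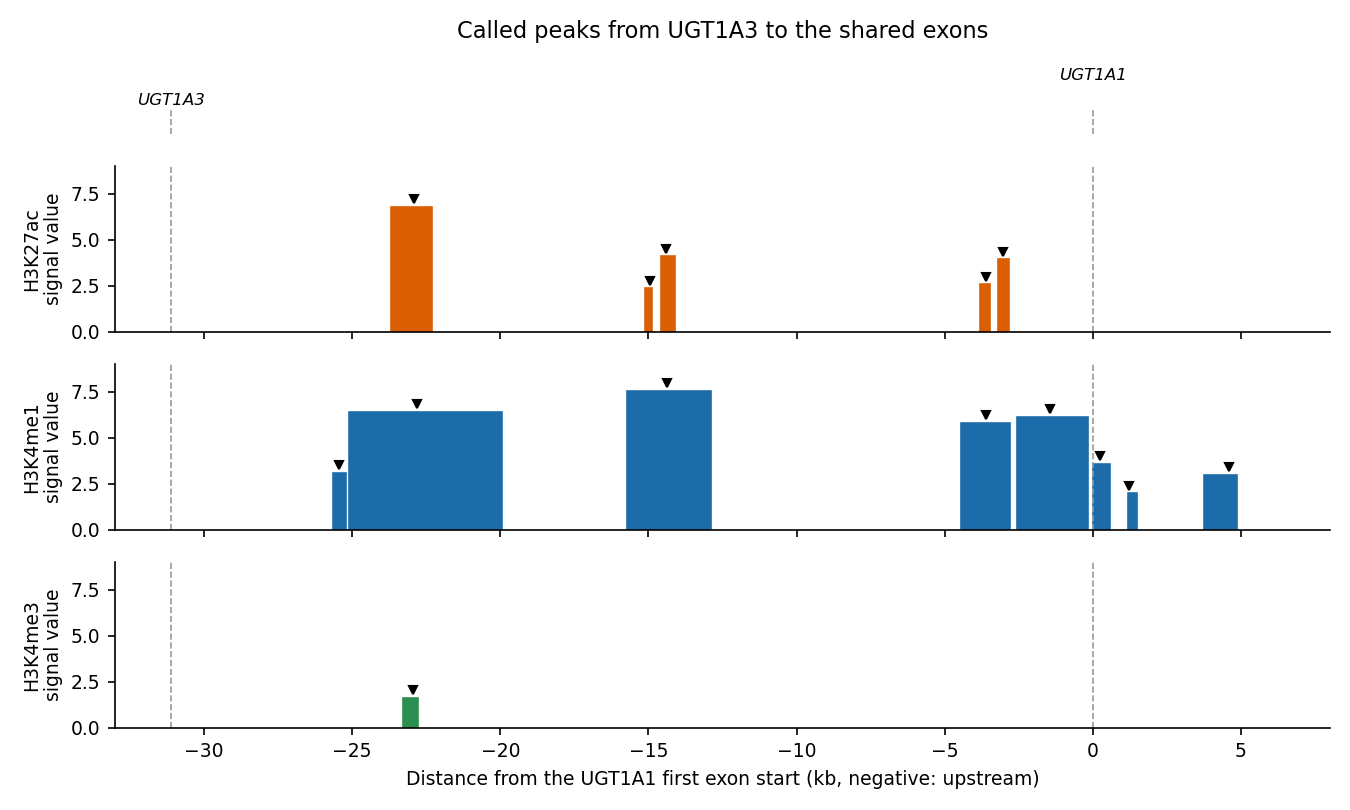
Called peaks from UGT1A3 to beyond UGT1A1, with distance from the UGT1A1 start in kb on the horizontal axis, the authors' signal value as box height and a triangle at each summit. At 22.9 kb upstream of UGT1A1 the H3K27ac, H3K4me1 and H3K4me3 summits stand within 131 bp, and the 2 pairs of narrow H3K27ac boxes nearer UGT1A1 each lie inside a single H3K4me1 box.

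Of the other places with H3K27ac, the strongest was the only one with all 3 marks. Its H3K27ac peak, at chr2:234645184-234646618, was 1435 bp wide and had a signal value of 6.84, above 70.6% of the list, and a −log10 q-value of 159. It lay wholly within an H3K4me1 peak of 5189 bp at chr2:234643791-234648979, wider than 98.7% of that list and with a signal value of 6.47, and it contained the H3K4me3 peak. The H3K27ac summit was 37 bp from the H3K4me3 summit and 94 bp from the H3K4me1 summit. H3K4me1 thus had its summit close to that of H3K4me3 here, beside an H3K4me3 peak of low signal value.

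Between that place and UGT1A1 lay the H3K4me1 peak with the highest signal value of the locus, 7.61, at chr2:234653156-234656020, above 95.2% of the list. It contained a pair of H3K27ac peaks with signal values of 2.40 and 4.15 and summits 555 bp apart, a spacing like the 561 bp of the pair next to UGT1A1. The stronger of the pair, at chr2:234654307-234654820, had its summit 32 bp from the H3K4me1 summit. The remaining H3K27ac peak, at chr2:234608357-234609069 (signal value 2.61), lay between UGT1A6 and UGT1A5 and overlapped an H3K4me1 peak of 467 bp with a signal value of 3.23.

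By overlap of at least 1 bp, all 6 H3K27ac peaks overlapped H3K4me1, beside 87.4% of the whole H3K27ac list, a share near enough that the count is no result about the locus. One of the 6, the peak with all 3 marks, overlapped H3K4me3, beside 31.7% of the list. The other 5 overlapped H3K4me1 and not H3K4me3, beside 59.8% of the list, and 0 overlapped neither mark (8.52% of the list). With 6 peaks these shares are coarse, since a single peak moves them by 16.7 percentage points.

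Of the 16 H3K4me1 peaks, 4 overlapped H3K27ac (33.4% of the whole list), 1 overlapped H3K4me3 (18.9%) and 12 overlapped neither (61.6%). The 4 that overlapped H3K27ac had signal values of 3.23 to 7.61 with a median of 6.17 and a median width of 2275 bp. The 12 others had signal values of 2.05 to 6.20 with a median of 3.19 and a median width of 851.5 bp. The groups overlapped, since the peak ending at -173 bp from UGT1A1, with 6.20, had no H3K27ac. A wider peak has more room to share 1 bp with another list, and the same split was not computed over the whole list. The difference is therefore a description, and whether it is particular to this locus was not tested. The single H3K4me3 peak overlapped both other marks, as did 77.5% of the H3K4me3 list with H3K27ac and 92.7% with H3K4me1, and 3.78% of that list overlapped neither.

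**Figure D4:**
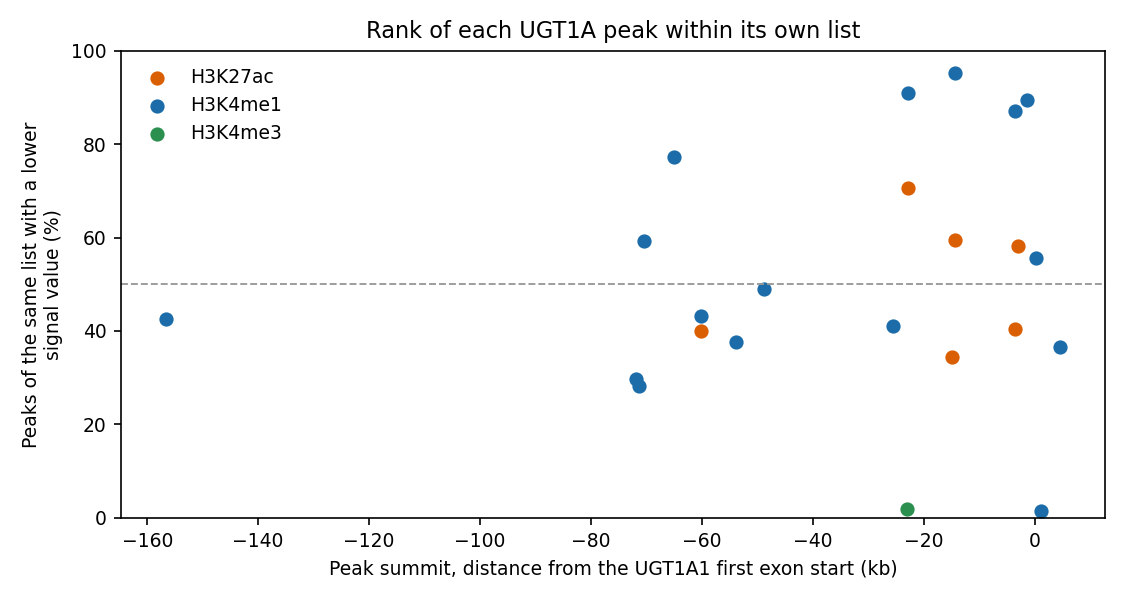
Percentage of peaks of the same list with a lower signal value, for each of the 23 UGT1A peaks, against the distance of its summit from the UGT1A1 start in kb; the dashed line is the median of each list. The H3K4me1 points above 85% all stand within 25 kb upstream of UGT1A1, the H3K27ac points range from 34.4 to 70.6%, and the H3K4me3 point is at 1.82%.

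Around UGT1A6 and between it and UGT1A5 the H3K4me1 peaks were mostly of middling rank. A run of 3, from 234596789 to 234598755, lay before the upstream start of UGT1A6, with signal values of 2.87, 2.83 and 3.77, and ended 1498 bp before that start. Between UGT1A6 and UGT1A5, 4 more covered 18.0% of 21.4 kb, and that stretch held the peak of 4.83 described above and another, at chr2:234614570-234615433, of 3.07. No peak summit of any mark lay from UGT1A5 to UGT1A4 or from UGT1A4 to UGT1A3, where the promoters of 87.6 to 90.0% identity stand. A further narrow H3K4me1 peak, of signal value 3.16 at chr2:234643235-234643726, stood just before the wide one with all 3 marks.

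Over the whole interval the marks differed in how they stood against the genome. H3K4me1 peaks covered 11.2% of the interval and 6.47% of chromosomes 1 to 22 and X. H3K27ac peaks covered 1.95% against 3.04%, and H3K4me3 0.292% against 1.49%. The 190 kb just after the interval had 10.8% under H3K4me1, 1.46% under H3K27ac and 1.38% under H3K4me3. The 190 kb just before it had 7.42%, 4.27% and 0.852%. The levels of H3K4me1 and H3K27ac were thus not particular to the interval. The H3K27ac peaks numbered 31.6 per Mb, above the 21.9 per Mb of the genome, but had a median width of 461.5 bp against 723.0 bp, and 1 of the 6 was wider than the list's median. Joining peaks within 1000 bp left 4 H3K27ac peaks in the interval, and the genome's number was not recomputed after joining. Median signal values of the locus were near those of the lists for H3K27ac (3.30 against 3.15) and H3K4me1 (3.31 against 3.42).

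Set beside 11583 end-to-end windows of the interval's length that held at least 1 H3K4me1 peak, the peak numbers were not extreme. At least 6 H3K27ac peaks were found in 35.9% of the windows, at least 16 H3K4me1 peaks in 40.7%, and at most 1 H3K4me3 peak in 55.2%. Among the 4717 windows with at least as many H3K4me1 peaks as the interval, 18.5% had at most 1 H3K4me3 peak. These windows are a description of the lists, since neighbouring windows are not independent.

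Other clusters of tandem genes for drug metabolism differed from UGT1A in both directions, with the same counts made over intervals set from general knowledge of GRCh37. The cluster of UGT2A and UGT2B genes on chromosome 4, which encode enzymes of the same class without shared exons between the UGT2B genes, had 34 H3K27ac, 99 H3K4me1 and 10 H3K4me3 peaks in 1120 kb. Per 100 kb its H3K27ac and H3K4me1 numbers, 3.04 and 8.84, were close to the 3.16 and 8.42 of UGT1A. Its strongest H3K27ac and H3K4me3 peaks had signal values of 26.98 and 39.56, against 6.84 and 1.69. Those were the highest among more peaks over a longer interval. Its median signal value for H3K27ac was 2.86, against 3.30 for UGT1A. For H3K4me3 its median was 4.93, against the 1.69 of the single UGT1A peak. The CYP3A cluster, whose enzymes oxidise many drugs, had 14.4% of its length under H3K27ac and 30.3% under H3K4me1, with a highest H3K4me3 signal value of 4.21. The CYP2C cluster had 0 H3K27ac, 0 H3K4me3 and 6 H3K4me1 peaks in 400.0 kb. UGT1A stood between CYP3A and CYP2C in the length under each of the 3 marks; with no replicate values these differences were not tested.

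**Figure D5:**
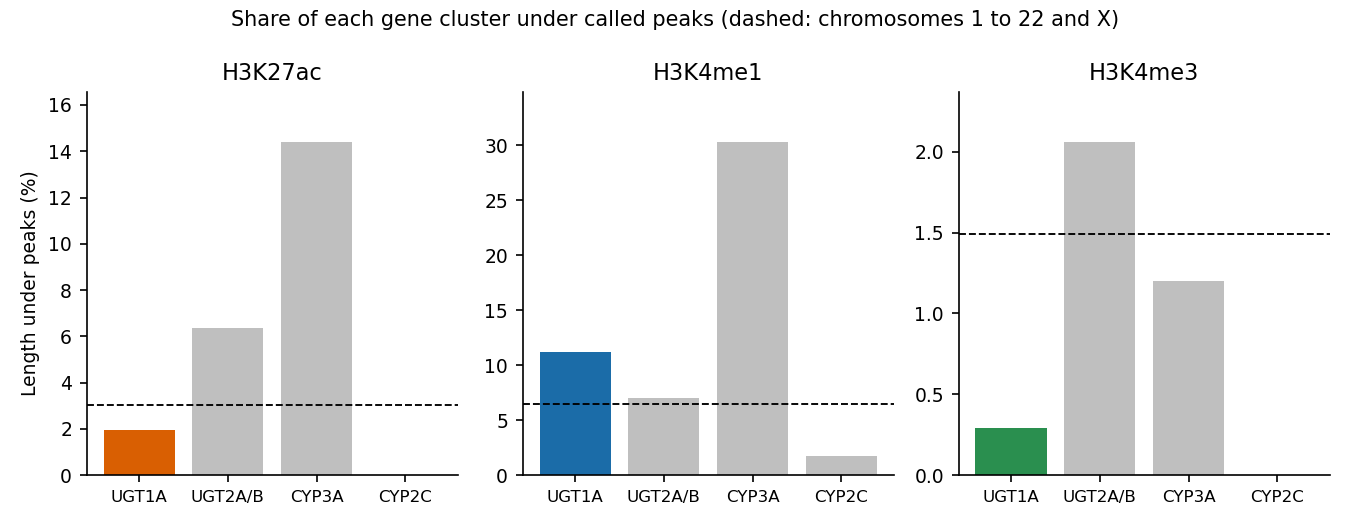
Percent of the length of 4 gene clusters under called peaks, 1 panel for each mark with its own axis from 0, UGT1A in colour and the dashed line at the level of chromosomes 1 to 22 and X. UGT1A lies above the line for H3K4me1 (11.2%) and below it for H3K27ac (1.95%) and H3K4me3 (0.292%). CYP3A is highest for H3K27ac and H3K4me1, the UGT2A and UGT2B cluster is highest for H3K4me3 (2.06%), and CYP2C has no H3K27ac or H3K4me3 bar.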

How the data were processed

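Peak lists of H3K27ac, H3K4me1 and H3K4me3 in HepG2 were analysed, 1 for each mark. Per the submitters' processing notes MACS2 and the build hg19 were used; the version, the threshold and the use of the control libraries are not given in the sources used here. The deposited signal value of each peak came from the authors' peak caller, on a scale that no source used here explains. The authors deposited the −log10 q-value as well. No counts were analysed, so the depth is unknown.

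Peaks on chromosomes 1 to 22 and X were read as listed; within a list none overlapped. Lists overlapped where they shared at least 1 bp. A first exon was called marked within 1000 bp of a peak. Chromosome lengths, the 10 start sites of the 9 first exons and the bounds of the other clusters were written from general knowledge of GRCh37. The distance of each start from the UGT1A1 start differed by at most 98 bp from that in RefSeq (GRCh38.p14). The planned counts over other genes of glucuronidation needed an annotation of hg19 and were not run. Every first exon was named, with all H3K27ac and H3K4me3 peaks and the H3K4me1 peaks that overlapped another mark, lay within 1000 bp of a start or ranked in the top 3 by signal value; the remaining H3K4me1 peaks were named after their values had been seen. The locus and the lists were chosen with earlier results of these data known, and the motifs and the comparison windows were chosen after seeing the peaks. Overlap and distance functions were tested on simulated intervals. Tools were Python 3.11.15, numpy 2.4.6, Biopython 1.88 and matplotlib 3.10.9.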

Additional observations from a re-analysis of the deposited data

How the results depend on the processing

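For 21 results 75 alternative values were computed, of which 70 stayed within 1.5 times the value reported. Joining peaks within 1000 bp left 10 H3K4me1 peaks in place of 16, by construction. It also left 4 H3K27ac peaks in place of 6, a change that stayed within that limit. Requiring that at least 50% of a peak be overlapped left 1 H3K4me1 peak overlapping H3K27ac in place of 4, and 0 H3K4me1 and 0 H3K27ac peaks overlapping H3K4me3 in place of 1 each; a peak more than 2 times as wide as the part overlapped cannot reach that share. Requiring the start to lie inside a peak left 1 first exon with H3K4me1, UGT1A1, in place of 2. With the limit at 2000 bp, or at 1200 bp, which was chosen after seeing the data, 3 were counted. The number of first exons with H3K27ac or H3K4me3 was 0 under each alternative run. A −log10 q-value of at least 5 kept 14 of the 16 H3K4me1 peaks and all of the other 7 peaks. No paired analysis was possible because each list pools the replicates of its mark, and for the same reason no replicate could be left out. The depth behind a stretch without peaks is unknown, so a mark too weak to be called there cannot be told apart from its absence.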
